A study of Mus musculus with 2 samples.

Results

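Dense chains of open chromatin were defined from the peaks of the control library. Neighbouring control peaks on chromosomes 1 to 19 and X were joined where the gap between them was at most 12.5 kb, and chains of at least 8 peaks were kept. This gave 1510 chains, which held 19352 of the 77421 control peaks on these chromosomes, or 25.0%. The other 58069 control peaks lay outside the chains. The positions of the control peaks therefore chose the chains, and the number, spacing and span of control peaks are given as descriptions. The peaks of the Brg1 cKO library took no part in the choice.

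The peaks come from ATAC-seq, in which a transposase cuts accessible DNA, on sorted tdTomato-positive cells of mouse kidneys at E18.5, close to birth, with 50000 cells per reaction. The first library came from kidneys of genotype Brg1cKO/cKO (here Brg1 cKO), in which Brg1, the gene also called Smarca4, is deleted conditionally, and the second from WT control kidneys. Wnt4-lineage is given as the cell type of the Brg1 cKO library alone, while that field holds the word control for the second, whose title and shared protocol place it in the same lineage. The labels also enter the library source as transcriptomic, although the protocol describes ATAC-seq, and the labels used here do not give the Cre driver or the reporter allele.

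Each genotype had 1 library, so differences could not be set against the spread between replicates and were not tested. Each interval below is an exact binomial 95% interval that covers counting error only. The Brg1 cKO list held 61102 peaks on these chromosomes. The read depth of the libraries is not known from the lists, and a difference in depth or background between libraries cannot be told apart from a difference between genotypes.

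Kidney mesenchyme that turns on Wnt4 goes on to form the epithelium of nephrons, the filtering units of the organ. BRG1 is the ATPase of BAF complexes, which use ATP to slide or evict nucleosomes and keep many enhancers open. Closely spaced enhancers that are linked over the distance used here are known from many cell types, where they often surround genes for regulators and products of that cell type. No enhancer mark was measured here, so the chains are called by their peaks and genes alone.

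The sequences that bear on the results come from the chains kept most completely and from promoters that kept or lacked their peak. The Hox chains hold microRNA genes, and their mature forms fall into families with shared seeds (bases 2 to 8, in capitals). The miR-10 pair, from the Hoxb and Hoxd chains, shares the seed ACCCUGU. The miR-196a sequence is encoded in both the Hoxb and the Hoxc chain, by Mir196a-1 and Mir196a-2, and has the seed AGGUAGU. All are from RefSeq, GRCm38.p6.
miR-10a-5p: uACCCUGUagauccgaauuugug
miR-10b-5p: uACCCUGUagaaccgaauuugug
miR-196a-5p: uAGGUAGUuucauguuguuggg

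Promoter windows reach from 250 bases before to 50 bases after a transcription start. Capitals mark the letters searched on both strands: TGANTCA is the AP-1 motif, GGGCGG is the GC box, the CCAAT box is spelled by its name, TATAAA is the TATA box and GGAATG is the TEAD motif. The windows of Wnt4 (chr4:137277385-137277684, plus strand), a ligand that starts nephron formation, and of Tjp1 (chr7:65371195-65371494, minus strand), the tight junction scaffold ZO-1, kept their peak in Brg1 cKO cells. Those of Pck1 (chr2:173152823-173153122, plus strand), an enzyme of glucose synthesis in proximal tubules, and Atp6v1b1 (chr6:83742767-83743066, plus strand), a proton pump subunit of intercalated cells, had a control peak that overlapped no Brg1 cKO peak. The Tjp1 window is at a start inside the gene (65296165 to 65527850), not at an end of it. Its peak therefore counted as distal. These 4 windows were chosen after their values were seen and are from RefSeq, GRCm38.p6.
Wnt4 promoter: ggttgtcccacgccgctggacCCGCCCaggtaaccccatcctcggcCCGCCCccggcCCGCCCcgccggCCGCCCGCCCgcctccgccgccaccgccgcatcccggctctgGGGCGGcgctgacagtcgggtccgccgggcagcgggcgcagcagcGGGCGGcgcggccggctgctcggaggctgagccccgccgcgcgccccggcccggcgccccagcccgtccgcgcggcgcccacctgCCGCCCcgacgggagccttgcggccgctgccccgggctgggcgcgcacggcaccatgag
Tjp1 promoter: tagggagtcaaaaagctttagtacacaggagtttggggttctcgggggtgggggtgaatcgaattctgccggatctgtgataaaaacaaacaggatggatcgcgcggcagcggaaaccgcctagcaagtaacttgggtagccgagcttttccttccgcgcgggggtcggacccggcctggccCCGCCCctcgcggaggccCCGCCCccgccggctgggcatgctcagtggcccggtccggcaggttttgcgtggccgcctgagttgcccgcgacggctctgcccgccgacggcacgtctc
Pck1 promoter: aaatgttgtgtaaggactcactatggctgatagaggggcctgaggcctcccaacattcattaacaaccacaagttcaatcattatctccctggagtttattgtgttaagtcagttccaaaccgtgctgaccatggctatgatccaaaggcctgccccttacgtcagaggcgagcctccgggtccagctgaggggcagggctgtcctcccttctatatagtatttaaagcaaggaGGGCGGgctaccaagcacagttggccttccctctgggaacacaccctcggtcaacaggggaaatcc
Atp6v1b1 promoter: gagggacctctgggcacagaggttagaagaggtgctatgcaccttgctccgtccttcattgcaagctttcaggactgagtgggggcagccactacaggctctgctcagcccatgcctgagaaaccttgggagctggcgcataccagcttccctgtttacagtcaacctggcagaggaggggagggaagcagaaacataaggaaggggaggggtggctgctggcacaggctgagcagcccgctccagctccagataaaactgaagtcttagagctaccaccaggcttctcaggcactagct

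The chains held 8 to 99 control peaks each, with a median of 11, and spanned 17.6 to 595.3 kb, with a median of 55.3 kb. Within the chains the median gap between neighbours was 3057 bp, against 8979 bp over all control neighbours. Just inside the threshold were 336 chains of 8 peaks, of which 73.7% of peaks overlapped a Brg1 cKO peak. Just outside it were 453 runs of 7 peaks, of which 74.8% of peaks did. Member peaks had a median width of 984 bp, against 795 bp outside. A similar share lay within 1000 bp of an annotated gene end (26.9% of members, 27.7% outside), and 20.3% of members and 19.9% of the others belonged to the most significant 5th of the control list. The chains were most frequent on chromosome 11, where they held 37.0% of control peaks, and least on X, where 6 chains held 4.93%.

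Over all chains, less sequence was covered by peaks in Brg1 cKO than in control cells, by nearly the same proportion as in the rest of the genome. Brg1 cKO peaks covered 20.7 Mb of the chain spans and control peaks 24.8 Mb, a ratio of 0.837. Outside the chains Brg1 cKO peaks covered 50.5 Mb and control peaks 59.7 Mb, a ratio of 0.846. Per chain, Brg1 cKO peaks covered a median of 10.7 kb and control peaks a median of 13.1 kb. The ratio ran over chains from 0.18 to 1.31 with a median of 0.824, and in 211 chains (13.97%) Brg1 cKO peaks covered more bases than control peaks did.

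**Figure D1:**
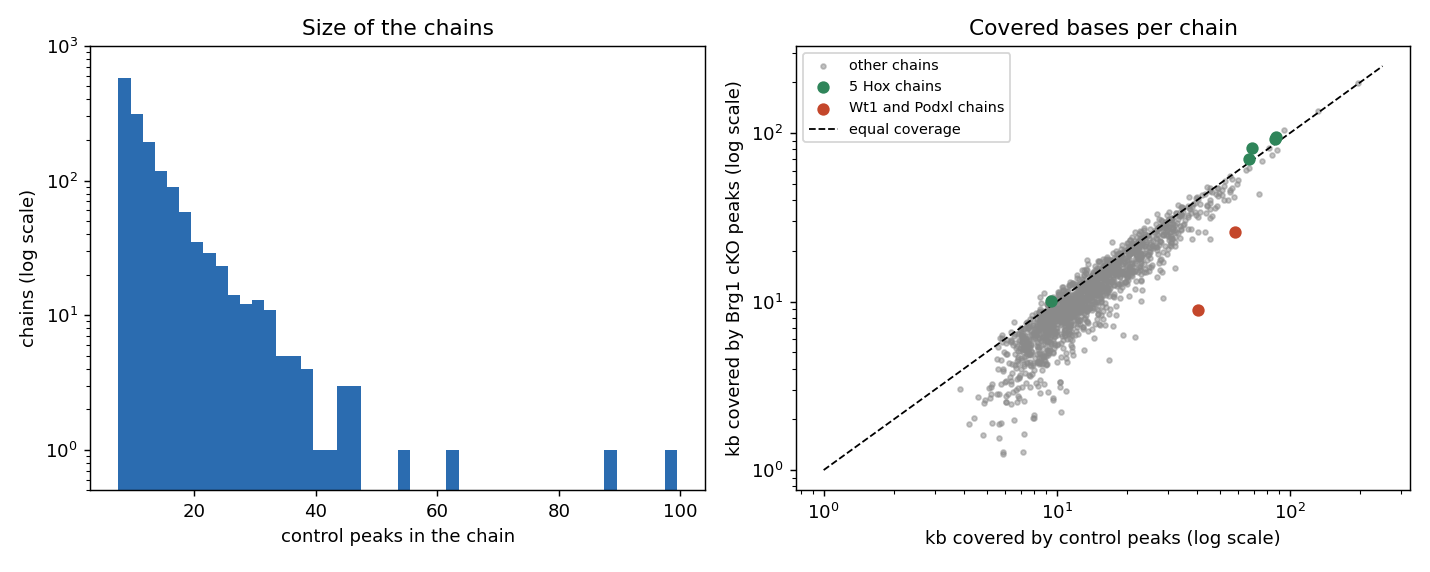
Number of control peaks per chain (left, log scale of chains) and bases covered per chain in kb by Brg1 cKO peaks against control peaks (right, both axes log scale, 1 point per chain, dashed line for equal coverage). Most chains hold fewer than 20 control peaks, the 5 Hox chains lie above the line, and the Wt1 and Podxl chains lie far below it, at ratios of 0.445 and 0.221.

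Of the 19352 member peaks, 4593 overlapped no Brg1 cKO peak and 14759 did, which is 76.3% (75.7 to 76.9%). Over all control peaks 25.9% overlapped none. Outside the chains 73.4% (73.1 to 73.8%) of control peaks overlapped a Brg1 cKO peak. Overlap depended strongly on the significance the peak caller gave, so each member was also set against peaks outside the chains in the same of 10 strength classes and at the same position, near a gene end or distal. This gave an expected share of 75.4% and a difference of 0.921 percentage points, which changed sign to -1.72 when 50% of both peaks had to overlap, to -1.67 with strength classes by peak area, and to -0.842 with classes by both. The direction of the difference between the chains as a whole and other control peaks was thus not fixed by these lists.

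Members near gene ends and distal members differed widely. Near gene ends 89.6% of member peaks overlapped a Brg1 cKO peak, against 90.4% of peaks near gene ends outside the chains, and 88.6% were expected from their strength, a difference of 0.975 points. Of distal member peaks 71.4% did, against 66.9% of distal peaks outside. The distal members were expected at 70.5% from their strength, a difference of 0.901 points, and this sign too turned, to -1.4 with 50% overlap, -2.2 with classes by area, -1.23 with classes by both and -0.138 with gaps of up to 25000 bp.

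Within a chain the loss lay at the weak end. The most significant peak of the chain overlapped a Brg1 cKO peak in 99.2% of chains, the second in 98.0%, the fifth in 86.2% and the eighth in 63.6%. The weakest peak of each chain did so in 36.3% (33.9 to 38.8%), with 40.5% expected. Over strength groups of the control list, the weakest 5th overlapped in 36.2% of members (39.3% outside) and the strongest 5th in all 3936 members (99.9% outside). Peaks at the edges of chains overlapped in 76.6% of cases and interior peaks in 76.2%, with 76.8% and 75.1% expected.

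**Figure D2:**
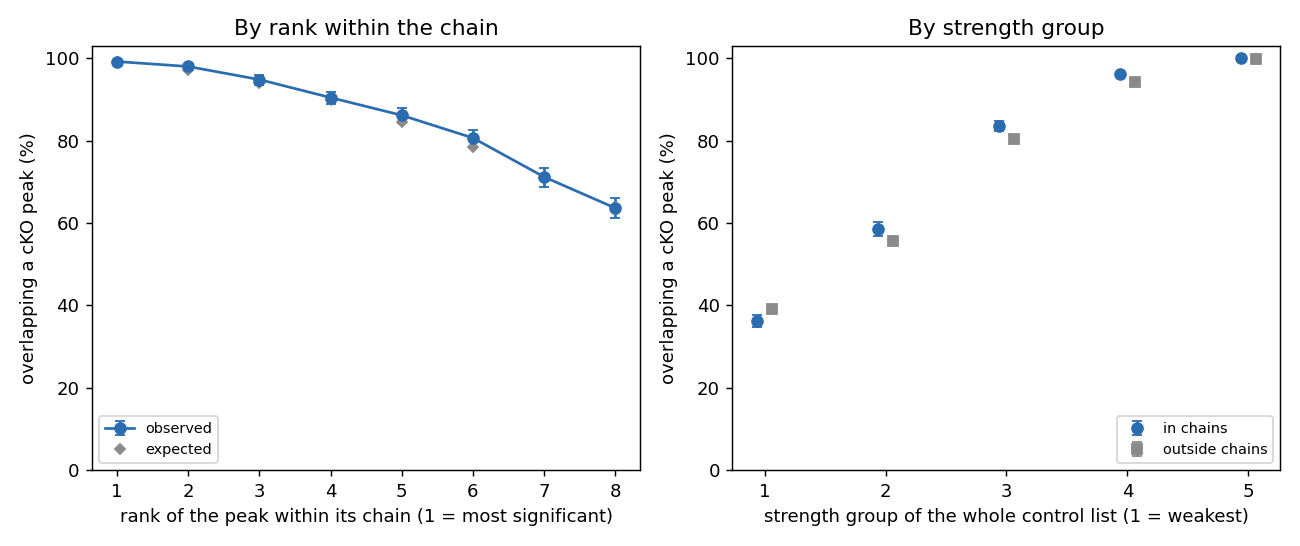
Share of member peaks overlapping a Brg1 cKO peak, in percent, by rank within the chain (left, with the expected share) and by strength group of the whole control list (right, members beside control peaks outside chains). Points are shares with exact 95% intervals, and the share is 99.2% at rank 1 and 63.6% at rank 8.

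By the same rule the Brg1 cKO list gave 848 chains with 10043 peaks, 16.4% of its peaks. Of the 1510 control chains, 766 (50.7%) overlapped such a Brg1 cKO chain. The share rose with size, which the fixed minimum of 8 peaks sets in part: 25.1% of chains of 8 to 9 control peaks, 54.8% of those of 10 to 14, 77.1% of those of 15 to 19 and 94.5% of the 163 chains of 20 or more. Of the Brg1 cKO chains, 793 (93.5%) overlapped a control chain.

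The chain spans were chosen for dense control peaks, so the share of Brg1 cKO peaks in them that met a control peak is a description. Of 15077 Brg1 cKO peaks in the chain spans, 320 overlapped no control peak and 97.9% overlapped one. Over all Brg1 cKO peaks 5.90% overlapped no control peak, and outside the spans 92.9% overlapped one. The 320 peaks lay in 262 chains, and 57 chains held more Brg1 cKO than control peaks. A further 424 Brg1 cKO peaks each joined 2 or more member peaks, and 428 member peaks were each broken into 2 or more Brg1 cKO peaks.

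Chains varied widely among themselves. The share of member peaks overlapping a Brg1 cKO peak had a median of 77.8% per chain, with the middle 50% of chains between 65.1 and 88.2% and the lowest at 12.5%. In 163 chains (10.8%), holding 1690 peaks, all member peaks overlapped one, and in none did no peak. In 96 chains (6.36%) under 50% of the member peaks did. That count was 8 of 840 chains with the control list cut to the most significant peaks, as many as Brg1 cKO had, 20 of 302 with gaps of up to 5000 bp, 23 of 622 with at least 12 peaks, and 164 with 50% overlap of both peaks. Of 3777 shorter runs of 4 to 7 control peaks, 10.9% were under 50% and 28.5% were complete, but a share over fewer peaks reaches either extreme more easily.

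The genes a chain covers went with its share. A total of 244 chains lay wholly within 1 protein-coding gene, and 1710 of their 2618 peaks, 65.3% (63.5 to 67.1%), overlapped a Brg1 cKO peak. These chains had 5.16% of their peaks near a gene end, and 41 of them (16.8%) were under 50%. In the 383 chains that touched 1 gene and held an end of it the share was 72.6% (71.3 to 73.9%). In the 564 chains with 2 to 4 genes it was 78.1% (77.1 to 79.0%). In the 212 chains with 5 or more genes it was 86.5% (85.3 to 87.7%), none of these was under 50%, and 50 were complete. The 107 chains with no protein-coding gene had 73.8% (71.2 to 76.3%).

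Most of this order was also in the strength and position of the peaks. The expected shares were 67.6% for chains within 1 gene and 83.8% for those with 5 or more genes. The difference was -2.29 points within 1 gene, and -4.23 with 50% overlap of both peaks, -7.1 with strength classes by peak area and -5.27 with classes by both. It was 0.251 with the chained control peaks cut to the most significant, as many as Brg1 cKO had. With 5 or more genes it was 2.68 points, and -1.36 with 50% overlap of both peaks. In covered bases, Brg1 cKO peaks reached 68.4% of the control length in chains within 1 gene and 96.9% in chains with 5 or more genes.

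**Figure D3:**
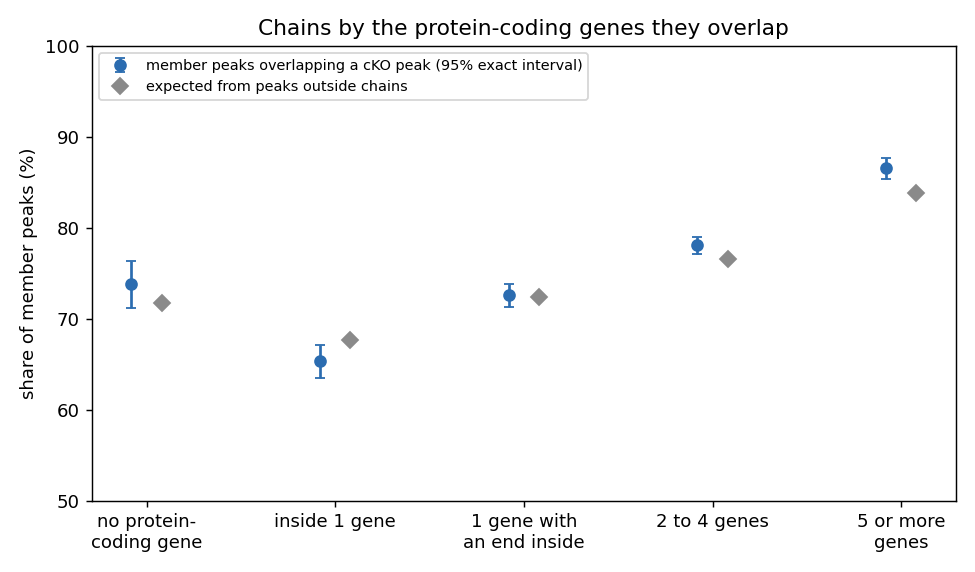
Share of member peaks overlapping a Brg1 cKO peak, in percent (axis from 50 to 100%), for chains grouped by the protein-coding genes they overlap. Circles are observed shares with exact 95% intervals and diamonds are shares expected from peaks outside chains of like strength and position; both are lowest for chains inside 1 gene and highest for chains with 5 or more.

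The 10 chains with the lowest shares are extremes of 1510 and are described as such. Ties were broken by number of peaks and then by position, which left out 2 further chains at 25.0%, those of Ulk4 and Sacm1l, with 2 of 8 peaks each. The lowest was the chain within Mgat5 (chromosome 1, 127305514 to 127349252), which encodes a Golgi enzyme that branches N-glycans. It had 1 Brg1 cKO peak, on its most significant member, and 8 control peaks, and the peaks covered 2.20 kb in Brg1 cKO and 10.5 kb in control cells. Its 7 other peaks, neighbours over 41.0 kb, all overlapped none. The chain within Srgap1, a GTPase-activating protein of the Slit-Robo pathway, had 6 Brg1 cKO and 20 control peaks, and 5 of the 20 overlapped. A second chain at the same gene, which also held an end of it and was named after its values were seen, overlapped at 9 of 23 peaks.

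The other low chains lay over genes of varied function. The Tjp1 chain overlapped at 3 of 13 peaks, with 3.10 kb covered in Brg1 cKO and 10.4 kb in control cells. The peak under the Tjp1 promoter window printed above, in the top strength class, was among the 3. Foxn3, a forkhead repressor, also overlapped at 3 of 13 peaks. Chains at Strn3 and Ap4s1, a phosphatase scaffold and an adaptor subunit, and at the predicted gene 0610040J01Rik overlapped at 2 of 9 peaks each. Those at Maml3, a Notch coactivator, Glis3, a zinc-finger factor linked to cystic kidneys, Ccbe1, a lymphatic growth protein, and Tnfsf15, a TNF family ligand, overlapped at 2 of 8 each.

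In 94 of the 1510 chains 4 or more neighbouring member peaks overlapped no Brg1 cKO peak. Over all control peaks 25.9% overlapped none, and how many such runs peak strength alone would give was not computed. The longest such run was 12 peaks, in the chain at Wt1, a zinc-finger regulator of nephron progenitors and podocytes, the filtering cells of the glomerulus. This chain (chromosome 2, 105058486 to 105182829) held 18 Brg1 cKO and 33 control peaks, and 16 of the 33 overlapped. Brg1 cKO peaks covered 25.9 kb of it and control peaks 58.1 kb. The run lay 88.0 to 118.0 kb from the start of the chain, and 11 of its 12 peaks lay in the Wt1 gene (105126529 to 105173614). Of the 12 peaks 8 were in the weakest 5th of the control list. Runs were picked for their lack of overlap, so no expected number is set beside them.

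Outside the run 16 of 21 peaks of the Wt1 chain overlapped a Brg1 cKO peak, 76.2%. Leaving out a run picked for its lack of overlap raises this share, so it is a description only. In bases, the run held 19.6 kb of the 58.1 kb covered by control peaks. The remaining control peaks thus also covered more than the 25.9 kb of Brg1 cKO peaks in the chain. The most significant peak, 10590 bp wide and 66.5 kb from the chain's start at an end of the gene, was overlapped by Brg1 cKO peaks of 3413, 5142 and 1665 bp. The run that was not overlapped is visible in the map of peaks along chains, as is the 1 overlapped peak beyond it, at 119.8 kb.

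The chain at Podxl, which encodes podocalyxin, the charged sialomucin of the podocyte surface, had the lowest share of the podocyte list. It spanned 51.9 kb (chromosome 6, 31513722 to 31565624) and also touched Mkln1. Brg1 cKO peaks numbered 7 and control peaks 14, of which 4 overlapped, against 65.3% expected. Brg1 cKO peaks covered 8.93 kb and control peaks 40.3 kb, the control peaks being up to 6850 bp wide. A run of 7 neighbouring peaks in the gene body had no Brg1 cKO peak. The overlapping 4 included the most significant, with a caller -log10 p of 10.6.

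At Lef1, a transcription factor of the Wnt pathway, the chain overlapped at 3 of 9 peaks, and Brg1 cKO peaks covered 2.13 kb and control peaks 8.01 kb. All 3 lay within the first 7 kb of the 45.4-kb chain, and the 6 neighbouring peaks beyond had none, among them its most significant, with a -log10 p of 7.62. The larger chain within Arid1b, a BAF subunit, held 7 Brg1 cKO and 19 control peaks, of which 6 overlapped. The chain at Wnt4 was close to its expected share, with 8 of 12 peaks overlapping (66.7%, with 69.0% expected). Smarca4 and Smarca2, the ATPase genes of the BAF complex, lay in no chain, with runs of at most 4 and 3 control peaks.

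**Figure D4:**
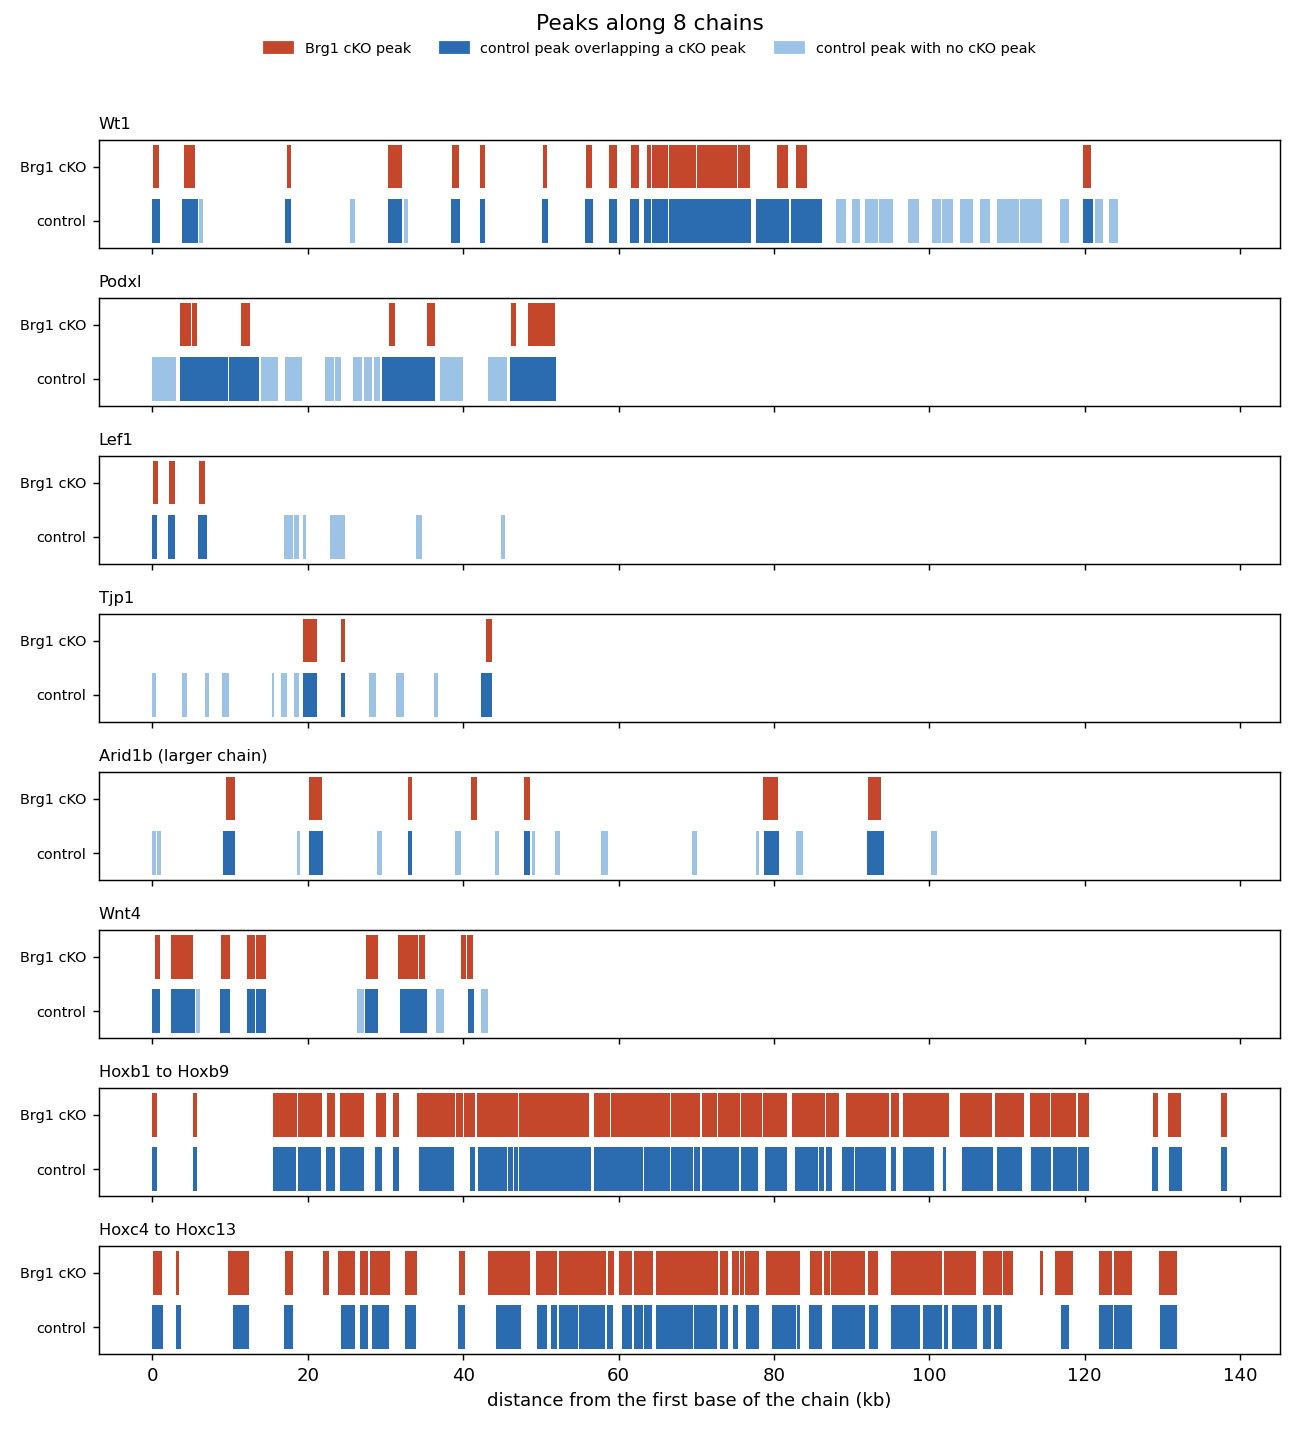
Peaks along 8 chains, by distance in kb from the first base of the chain, with Brg1 cKO peaks above and control peaks below; pale control peaks overlap no Brg1 cKO peak. Wt1 lacks Brg1 cKO peaks over 12 neighbouring control peaks from 88.0 kb and Podxl over 7, while the Hoxb and Hoxc chains have them at every control peak.

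At the other end stood the Hox chains. Hox genes encode the homeodomain factors that set position along the body axis. All 39 Hox genes lay in 5 chains, and 146 of the 150 member peaks overlapped a Brg1 cKO peak, 97.3%. The expected share was 81.0%, but with 50% overlap of both peaks the Hox chains were 1.29 points below that expected; under the other settings run they were 8.17 to 16.3 points above. Brg1 cKO peaks covered 348.8 kb of these chains and control peaks 318.6 kb, and the covered length was larger in Brg1 cKO cells in each of the 5.

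The chain of Hoxb1 to Hoxb9 (chromosome 11, 96234834 to 96373096) held 33 Brg1 cKO and 37 control peaks, and all 37 overlapped. Covered were 95.5 kb in Brg1 cKO and 87.6 kb in control cells. The Hoxc chain held 36 Brg1 cKO and 39 control peaks, with 81.2 and 68.6 kb covered in Brg1 cKO and control cells. All 39 control peaks overlapped a Brg1 cKO peak, and 5 of the 36 Brg1 cKO peaks met no control peak. This was the highest number of such peaks in any chain. Hoxd overlapped at 33 of 35 peaks, Hoxa at 30 of 31 and the separate Hoxb13 chain at 7 of 8.

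Other complete chains of 16 to 18 peaks held unrelated genes. That of Uncx, a homeobox gene, overlapped at 16 of 16 peaks and those of Nes and of Mcam, an intermediate filament and an adhesion molecule, at 17 of 17. The chain of E4f1, a zinc-finger factor, with 7 neighbouring genes, overlapped at 18 of 18. Those with Slc32a1, a vesicular transporter, and Piezo1, a mechanosensitive channel, overlapped at 17 of 17, and those with Rara, a retinoic acid receptor, and Prr12 at 16 of 16.

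The largest chain spanned 595.3 kb of chromosome 10 (79633119 to 80228407) and overlapped 41 protein-coding genes, among them Cnn2, a calponin, and Shc2, an adaptor. It held 91 Brg1 cKO and 99 control peaks, 92 of which overlapped, and 199.0 kb were covered in Brg1 cKO and 195.6 kb in control cells. The second, at Gse1, a corepressor subunit, held 80 Brg1 cKO and 89 control peaks over 384.3 kb, and 83 overlapped (93.3%, with 75.0% expected). It had 9 peaks near a gene end, so a chain of mostly distal peaks was kept as fully. The third, at Atcay and Matk, overlapped at 59 of 63 peaks.

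Among the 10 largest chains, 3 overlapped 1 or 2 genes. Casz1, a zinc-finger factor, overlapped at 26 of 46 peaks, and Brg1 cKO peaks covered 43.8 kb and control peaks 73.6 kb. Tead1, the DNA-binding partner of YAP, overlapped at 28 of 44 peaks, with 32.2 kb in Brg1 cKO and 46.3 kb in control cells. Septin9, a cytoskeletal filament protein, overlapped at 35 of 45. The expected shares were 65.1% at Casz1 and 68.4% at Tead1, above the observed 56.5% and 63.6%. At Septin9 71.3% were expected, below the observed 77.8%. The ratio of covered bases was 0.595, 0.695 and 0.831 at Casz1, Tead1 and Septin9, beside a median of 0.824 over all chains. The others of like size, at Mfng, a Notch-modifying enzyme, at Cacna2d2, a calcium channel subunit, and at Cstad, overlapped at 37 of 46, 37 of 46 and 36 of 45 peaks, with ratios of 0.93, 0.908 and 0.928.

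Of the chains with no protein-coding gene, the largest lay 17.7 kb from Foxl1, in the gene cluster of forkhead factors that also holds Foxf1 and Foxc2. It spanned 255.7 kb (chromosome 8, 121148386 to 121404075) with 43 Brg1 cKO and 55 control peaks, of which 40 overlapped. The neighbouring chain over Foxc2, Foxf1 and Foxl1 themselves overlapped at 14 of 16. The next 2 by size lay near Ptpn1, with 20 of 32 peaks overlapping, and near Alkbh8, with 27 of 29. The last lay near the start of chromosome 9 (2999958 to 3038266), 297.0 kb from the nearest gene, with 31 Brg1 cKO and 29 control peaks in 38.3 kb. Regions prone to mapping artefacts were not filtered here.

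Protein-coding genes overlapped a chain in 3470 of 21631 cases, 16.0%, and 2047 (9.46%) lay wholly inside one. Genes in chains had a median length of 14.8 kb, against 18.0 kb for the others. Hox genes aside, the highest share of genes overlapping a chain among the 22 lists was that of podocyte genes, with 16 of 26 (61.5%). Wholly inside a chain were 11 podocyte genes (42.3%) and 9 of the 20 AP-1 and immediate early genes (45.0%). The median length of the listed podocyte genes was 56.6 kb, against 17.3 kb over all protein-coding genes. Actin cytoskeleton genes followed with 12 of 21, Notch pathway genes with 8 of 15, and AP-1 and immediate early genes, whose median length was 5.32 kb, with 10 of 20.

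Of tubule genes, 3 of 20 proximal tubule, 2 of 20 loop and distal tubule and 5 of 20 collecting duct genes overlapped a chain, beside the 16.0% of all protein-coding genes. Among genes of cells outside the nephron, 9 of 20 endothelial, 6 of 22 interstitial, 5 of 15 smooth muscle and pericyte, 3 of 14 immune, 2 of 12 neural and 1 of 10 erythroid genes lay in chains. Nephron progenitor genes were in chains in 7 of 20 cases, Wnt pathway genes in 7 of 21, TGF-beta, BMP and FGF genes in 11 of 27, Hippo genes in 6 of 15, matrix genes in 10 of 20, BAF genes in 8 of 23 and housekeeping genes in 4 of 12. A long gene offers more length to meet a chain, and the listed matrix genes had a median length of 71.6 kb. However, over all protein-coding genes those in chains were the shorter, at a median of 14.8 kb against 18.0 kb. Shares at equal gene length were not computed. Wholly inside a chain were 0 of the 20 matrix and 0 of the 22 interstitial genes.

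**Figure D5:**
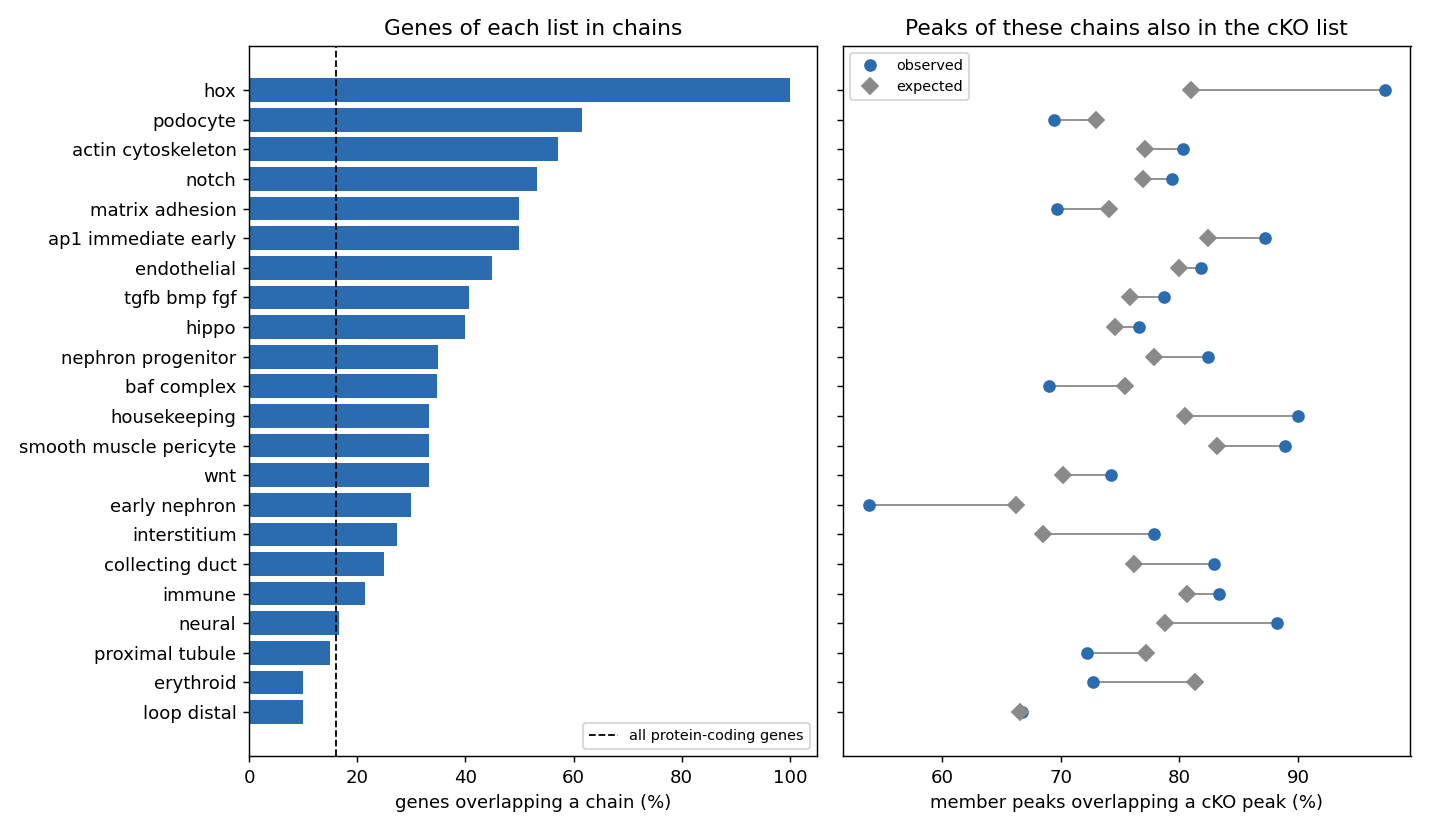
Percent of the genes of 22 lists that overlap a chain (left, dashed line at 16.0% for all protein-coding genes) and percent of the member peaks in these chains that overlap a Brg1 cKO peak (right, circles observed, diamonds expected from peaks of like strength and position outside chains). Hox and podocyte genes lead on the left; on the right Hox chains lie 16.3 points above their diamond and early nephron chains 12.5 points below.

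The 17 chains of podocyte genes held 278 peaks, of which 193 (69.4%) overlapped a Brg1 cKO peak, with 73.0% expected. The difference of -3.57 points ran from -9.69 to -1.82 over the settings run, and from -4.63 to -1.81 when each chain was left out in turn, the last without Podxl. Brg1 cKO peaks covered 306.6 kb and control peaks 452.8 kb, a ratio of 0.677. Of these chains 9 were below their expected share and 8 above, while of all 1510 chains 696 (46.1%) were below theirs and 814 above. Below were Podxl and Wt1, Sema3g, a semaphorin (5 of 10, with 90.2% expected), Vegfa, the endothelial growth factor (8 of 13), and the larger of the chains at Bmp7, a survival factor of progenitors (14 of 22).

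Also below were Actn4, an actin crosslinker (19 of 28), Nphs1, the nephrin of the slit diaphragm (12 of 16), the cell cycle inhibitor Cdkn1c (7 of 9) and the second Bmp7 chain (7 of 10). Above were the transcription factors Foxc1 (12 of 15), Foxc2 (14 of 16), Tcf4 (8 of 9) and Lmx1b (18 of 24). So were Synpo, an actin-associated protein (18 of 22), Kirrel, a slit diaphragm protein (8 of 11), Npnt, a matrix ligand (6 of 9), and Nes (17 of 17).

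Early nephron genes, active as the renal vesicle forms, had 6 of 20 in chains. Their 7 chains held 80 peaks, of which 43 (53.8%) overlapped a Brg1 cKO peak, with 66.2% expected, and all 7 lay below their expected share, as did 46.1% of all chains. The difference of -12.5 points ran from -20.8 to -3.29 over the settings run and from -15.3 to -9.89 when each chain was left out. Brg1 cKO peaks covered 64.0 kb and control peaks 102.3 kb, a ratio of 0.626. Beside Lef1 and Wnt4 these were Cdh4, a cadherin, in both of its chains (4 of 9 and 3 of 8 peaks), Pax8, a paired-box factor (6 of 10), Jag1, a Notch ligand (6 of 10), and Notch2, the receptor (13 of 22).

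Nephron progenitor genes held chains of both kinds. Pax2, a paired-box factor, had a chain with 10 of 10 peaks overlapping and another, farther along the gene, with 3 of 8. Hoxa11 and Hoxd11 lay in the Hox chains, Meox1, a homeobox factor, overlapped at 24 of 26 peaks and Sall1, a zinc-finger factor, at 8 of 11. With Wt1 the 8 chains overlapped at 140 of 170 peaks, 82.4%, with 77.9% expected.

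Chains of BAF genes overlapped at 87 of 126 peaks, 69.0%, with 75.4% expected, and 7 of 9 chains were below their expected share, as were 46.1% of all chains. Beside both Arid1b chains these were the core subunit Smarcb1 (6 of 9), Dpf3 (8 of 12), Smarcd1 (13 of 18), Arid1a (7 of 8) and Bcl7a (8 of 11), while Dpf1 (22 of 27) and Dpf2 (11 of 13) were above. The difference was -6.35 points, and -2.24 without the larger Arid1b chain. Matrix chains overlapped at 69.7%, with 74.1% expected, the lowest being Lama5, a laminin chain of the glomerular basement membrane, with 4 of 9. Neither the BAF nor the matrix list was run under other settings, and no interval was computed for the share of a list.

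Signalling lists were divided within, while each summed above its expected share. Wnt chains overlapped at 74.2% (70.2% expected), Notch chains at 79.4% (76.9%) and TGF-beta, BMP and FGF chains at 78.7% (75.8%). These lists were not run under other settings, and leaving out 1 chain lowered the Wnt difference to -0.383 points. In the Wnt list the receptor genes differed, with Lgr4 overlapping at 4 of 11 peaks and Fzd4 at 13 of 13, and the factors Tcf7 (9 of 10) and Lef1 (3 of 9) did too. In the Notch list, Notch1 overlapped at 10 of 10 peaks and the ligand gene Dll4 at 11 of 11, against 13 of 22 at Notch2. Fgfr2, a receptor for FGFs, overlapped at 15 of 27 peaks, with 20.5 kb covered in Brg1 cKO and 30.1 kb in control cells, while Smad3 and Smad7, a mediator and an inhibitor of TGF-beta signals, overlapped at 26 of 31 and 24 of 27.

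Of the 6 lists of cells outside the nephron, 5 had chains above their expected share when their peaks were summed, and the 1 erythroid chain was below, at 8 of 11 (72.7%, with 81.3% expected). All member peaks together were 0.921 points above, a sign that turned with the setting, and these lists were not run under other settings. Leaving out 1 chain lowered the difference to 0.231 points for endothelial and 0.178 for immune chains. The chain of Elavl3 and Cnn1 counts in both the neural and the smooth muscle list. Collecting duct chains were also above their expected share, at 82.9% with 76.2% expected. However, 37 of their 105 peaks were those of the Hoxb chain, and without that chain the difference was -0.137 points. The 9 interstitial chains overlapped at 81 of 104 peaks, 77.9%, with 68.5% expected. Meis1 and the smaller chain of Meis2, homeobox factors, were complete at 9 of 9 peaks each, and the larger chain of Zeb2, a repressor of epithelial genes, overlapped at 6 of 11. Endothelial chains overlapped at 99 of 121 peaks (81.8%, with 80.0% expected), among them the ETS factors Fli1 (9 of 9) and Ets1 (8 of 9 and 7 of 8), while Eng (20 of 30), Cldn5 (4 of 8, with 75.1% expected) and Esam (6 of 8, with 77.3% expected) were below theirs. Smooth muscle and pericyte chains overlapped at 64 of 72 (88.9%, with 83.2% expected). AP-1 and immediate early chains, which belong to no 1 cell type, overlapped at 129 of 148 (87.2%, with 82.4% expected), among them Fos (10 of 12) and Junb (17 of 18). The makeup of the sorted cells in each library is not known from these lists, so fewer cells of a type and less open chromatin per cell cannot be told apart.

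Promoters within chains were almost all kept. A control peak of a chain lay on 2779 promoter windows, and on 2737 of them (98.5%, 98.0 to 98.9%) such a peak overlapped a Brg1 cKO peak, against 98.0% outside the chains. The other 42 windows belonged to 41 genes. In 33 of the 42 the control peak was in the weakest 3 of 10 strength classes, and the highest class reached was 8, at Lipe, a lipase. The Pck1 peak was in class 3 and the Atp6v1b1 peak in class 1, and their chains overlapped at 6 of 8 and 6 of 10 peaks.

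The 42 windows differed in letters from the 2737. They had a median of 5 CpG and 56.5% G or C, against 20 CpG and 62.0% in windows with an overlapping peak. The 4 printed windows show this, with 51 CpG at Wnt4 and 31 at Tjp1, against 6 at Pck1 and 3 at Atp6v1b1. GGGCGG was in 14 of the 42 (33.3%), in 67.7% of the 2737 and in 46.7% of all 21045 windows. TGANTCA was in 8 of the 42 (19.05%, 8.60 to 34.1%), in 4.82% of the 2737 and in 7.04% of all windows. The CCAAT box was in 16.7% of the 42, 38.4% of the 2737 and 38.5% of all windows. TATAAA was in 4.76%, 6.69% and 12.7% of these sets, and GGAATG in 14.3%, 12.9% and 13.5%. The Atp6v1b1 window held none of the 5 sets of letters. A match of letters is no evidence of binding, and the lost windows also had weaker control peaks.

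MicroRNA hairpins overlapped a chain in 180 of 1005 cases, 17.9%, in 141 chains. Of the 180, 79 lay under a Brg1 cKO peak and 87 under a control peak. In the Hox chains, Mir196a-2 and Mir196b lay under a peak of both libraries and Mir10a under a Brg1 cKO peak only, while Mir10b and Mir196a-1 lay under none, although their chains overlapped at 33 of 35 and 37 of 37 peaks.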

How the data were processed

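ATAC-seq peak lists of 1 Brg1 cKO and 1 control library were analysed. Per the submitters' processing notes, Trim Galore, SAMtools and Genrich were used on mm10. The aligner, settings, duplicate treatment and read shift are unknown here: not given in the sources used. Each deposited list gives positions, a score, a signal (the peak area, not scaled between libraries), and the authors' −log10 p and −log10 q. The lists give no read counts, so depth is unknown. The score and q were not used, and p and area served only to rank peaks within the control list.

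Peaks on chromosomes 1 to 19 and X were chained with Python 3.11.15, numpy 2.4.6, pandas 2.3.3 and SciPy 1.17.1, and drawn with matplotlib 3.10.9. Overlap was at least 1 bp. Expected shares weight control peaks outside chains by 10 strength classes and by position within 1000 bp of a gene end. Genes, hairpins and promoters are those of RefSeq GRCm38.p6, the assembly of mm10, and coordinates are 1-based. The gene table gives no strand, so both ends of a gene count. The steps were tested on simulated peaks.

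Members and gene lists were chosen with earlier results of these data known. Chains to name were drawn from the 10 with the most peaks, the 10 lowest and 10 highest in share, the 5 with the most peaks seen only in Brg1 cKO, per gene list the largest and the lowest, and those of Smarca4, Smarca2 and Wnt4. Chains over listed genes are named from the lists, and other names were chosen after their values were seen. The alternatives tried were other gaps, minimum sizes, overlap rules, strength measures and list lengths, and leaving out X.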

Additional observations from a re-analysis of the deposited data

How the results depend on the processing

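No paired analysis was possible because each genotype had 1 library. Gaps of up to 5000 bp gave 302 chains, a share of 78.4%, a difference from expected of 3.29 points, a base ratio of 0.853, 20 chains under 50%, 126 overlapping a Brg1 cKO chain and 467 genes. Gaps of up to 25000 bp gave 2365 chains, 75.2%, 0.0597 points, 0.832, 1486 overlapping chains and 8036 genes. At least 12 peaks gave 622 chains, 77.2%, 0.845, 23 under 50%, 275 overlapping chains and 1838 genes. Chaining only the most significant control peaks, as many as in Brg1 cKO, gave 840 chains, 87.6%, 1.99 points, 0.934 and 8 under 50%. It put chains within 1 gene at 0.251 points.

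With 50% overlap of both peaks the share was 69.8%, the difference -1.72 points and 164 chains were under 50%; chains with 5 or more genes were at -1.36, distal peaks at -1.4 and Hox chains at -1.29. Classes by area gave -1.67 over all members and -2.2 for distal peaks. Classes by p and area, added after seeing the data, gave -0.842 and -1.23. Distal peaks were at -0.138 with the widest gap. In the more significant 50% of both lists the share was 74.8%, and 75.1% outside chains. Genes wholly inside numbered 2047. Podocyte and early nephron chains stayed below their expected share under every setting run. With 1 library per genotype, depth and genotype cannot be told apart.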

Other observations

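Of the 848 chains of Brg1 cKO peaks, 55 overlapped no control chain. The largest, at Sfi1 and Eif4enif1, held 15 Brg1 cKO and 13 control peaks, and those at Flywch1 and at Ttbk1 held 13 and 12 Brg1 cKO peaks, with 11 and 10 control peaks. These control peaks did not form a chain of 8 neighbours under the gap rule. The balance varied among the 55. The chain near Olfr1324 on X held 10 Brg1 cKO peaks and 1 control peak, that at Mid1 on X 10 and 4, and that at Rab11fip3 10 and 12. Regions prone to mapping artefacts were not filtered here either.

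Several gaps of neighbouring lost peaks lay in chains that no list or naming rule covers, and were chosen after their values were seen. At Amz1 and Gna12, the second a G protein subunit, 8 neighbouring peaks overlapped no Brg1 cKO peak, and the chain overlapped at 12 of 20. At Galnt10, a glycosyltransferase, and Lpin2, a phosphatidate phosphatase, runs of 7 were lost, with 8 of 21 and 9 of 17 peaks overlapping. At Irs1, the insulin receptor substrate, and Gab1, a docking protein, runs of 6 were lost, with 5 of 11 and 6 of 15 overlapping.

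Outside chromosomes 1 to 19 and X each list held 108 peaks, which were not analysed here.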
